A study of Mus musculus with 8 samples.

Results

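The CD28 family of receptors and their B7 family ligands were read in 2 populations of mouse regulatory T cells. The 8 genes were Cd28, Ctla4 and Icos for the receptors and Icosl, Cd80, Cd86, Cd274 and Pdcd1lg2 for the ligands. They were picked by name, from the Ensembl identifier of each row, out of 47069 Ensembl genes that both deposited tables share. The cells came from lymph nodes of C57BL/6 mice aged 6 to 8 weeks that carried 2 reporters, 35EbiT, which marks Ebi3 expression with Thy1.1, and a Blimp1-GFP knock-in. Ebi3-Treg were the CD4+CD25+ cells that were CD62L-low, Thy1.1+ and Blimp1-. Blimp1-Treg were the CD4+CD25+ cells that were CD62L-low, Thy1.1- and Blimp1+. Each population had 4 RNA-seq libraries, made with a low-input SMART-Seq kit. The labels gave a sort purity above 90%. They did not say which mouse or pool of mice each library came from, so each p-value reflects how far these libraries scatter, which may be technical.

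CD28 is the main costimulatory receptor of T cells, and ICOS is a relative that is induced on activation. CTLA-4 binds the same ligands as CD28, CD80 and CD86, with higher affinity, and regulatory T cells use it to strip those ligands from antigen-presenting cells. ICOS binds ICOS ligand, encoded by Icosl, while PD-L1 (Cd274) and PD-L2 (Pdcd1lg2) bind the inhibitory receptor PD-1. Ligand genes of this family are best known in B cells, dendritic cells and macrophages, but activated T cells can transcribe several of them.

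Values were in FPKM, fragments scaled by gene length and sequencing depth, in 2 tables, one with replicates 1 and 2 of each population and one with replicates 3 and 4. The step that 1 read makes in the FPKM values gave depths of about 13300000 to 25600000 reads for Ebi3-Treg and 14700000 to 31300000 reads for Blimp1-Treg. Foxp3, the lineage factor of regulatory T cells, had 182 to 375 FPKM in Ebi3-Treg, against 184 to 406 FPKM in Blimp1-Treg. The genes behind the reporters followed the gates: the log2 fold change of Ebi3 was 1.80 (adjusted p = 0.00576) and that of Prdm1, which encodes Blimp1, was -4.43 (adjusted p = 0.000155) by the limma test that follows. The libraries numbered 2 stood apart: the median Spearman correlation with the other libraries, across genes, was 0.911 for Ebi3-Treg 2 and 0.875 for Blimp1-Treg 2, against 0.935 to 0.951 for the rest. All 8 genes passed the filter on low values, which 12273 genes passed by reaching 1 FPKM in at least 4 of 8 libraries. The lowest of the 64 values, for Cd80 in Ebi3-Treg 3, rested on 36 reads.

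Icos was lower and Cd86 was higher in Ebi3-Treg than in Blimp1-Treg, and these were the genes of the 8 that passed the test over all libraries. Mean Icos was 2.96-fold lower in Ebi3-Treg, and mean Cd86 was 3.77-fold higher. Ctla4 and Cd80 averaged lower in Ebi3-Treg, and Pdcd1lg2 and Icosl averaged higher, without passing. Cd28 and Cd274 differed least. The test was limma on log2(FPKM + 1), with Benjamini-Hochberg adjustment over all 12273 genes and a term for the table. It called 772 genes, or 6.29%, of which 413 were higher and 359 lower in Ebi3-Treg. That count was 385, 370, 403 and 341 without Ebi3-Treg 3, Ebi3-Treg 4, Blimp1-Treg 3 and Blimp1-Treg 4, and each of these fits still called Icos and Cd86.

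**Figure D1:**
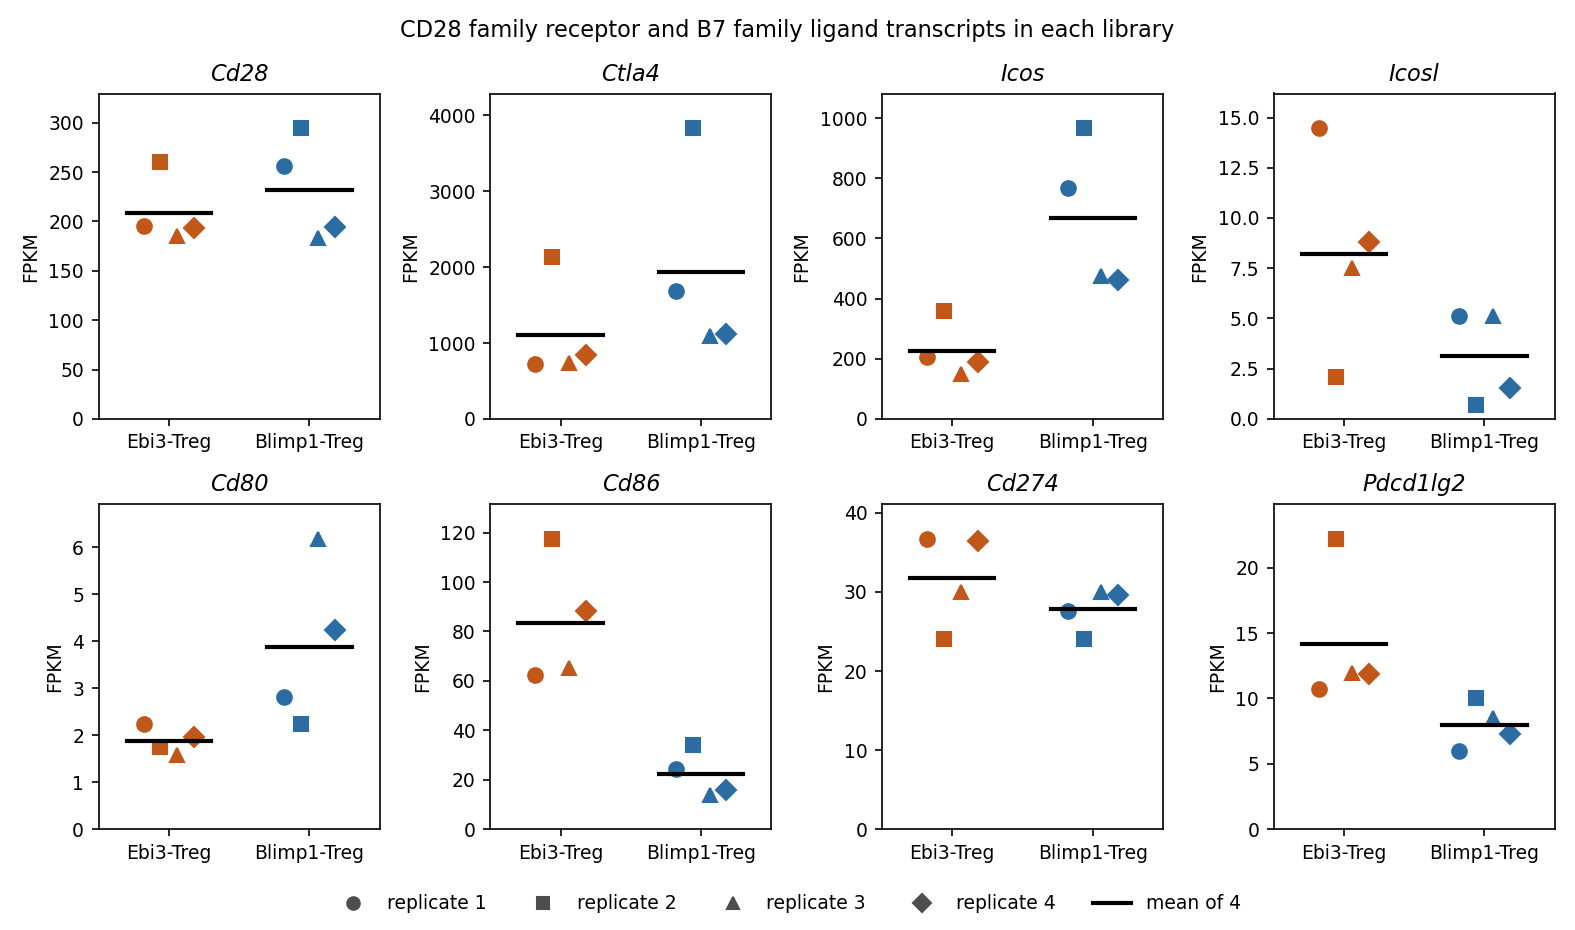
FPKM of the 8 genes (vertical axes, linear, from 0) in each of 4 Ebi3-Treg libraries (orange) and 4 Blimp1-Treg libraries (blue), with symbols for replicate numbers and a line at each mean. Icos lies between 149 and 359 in Ebi3-Treg, below the 463 to 966 of Blimp1-Treg, and Cd86 lies between 62.5 and 118 in Ebi3-Treg, above the 13.9 to 34.1 of Blimp1-Treg.

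The receptor genes lie side by side on chromosome 1 in the order Cd28, Ctla4, Icos, with Raph1 and Pard3b as the outer protein-coding neighbours (RefSeq order, GRCm38.p6). Icos had 207, 359, 149 and 188 FPKM in Ebi3-Treg 1 to 4, against 769, 966, 474 and 463 FPKM in Blimp1-Treg 1 to 4. Every Ebi3-Treg value was below every Blimp1-Treg value, and the populations stayed apart in both tables. The log2 fold change, Ebi3-Treg minus Blimp1-Treg, was -1.57 (SE 0.20, 95% interval -2.02 to -1.11, adjusted p = 0.00415). Within tables it was -1.66 for replicates 1 and 2 and -1.48 for replicates 3 and 4, with adjusted p of 0.499 and 0.00664. The call in replicates 3 and 4 was lost without Blimp1-Treg 3 or 4 (adjusted p 0.0599 and 0.0545). Only 2.18% of the genes tested had a fold change of greater size.

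Ctla4 was the most abundant of the 8 genes in every library. It had 718, 2135, 740 and 848 FPKM in Ebi3-Treg 1 to 4, against 1691, 3829, 1094 and 1122 FPKM in Blimp1-Treg 1 to 4. The library numbered 2 was the highest of each population, and the populations overlapped through it. Each Ebi3-Treg library was below the Blimp1-Treg library of the same number, which was 2.36, 1.79, 1.48 and 1.32 times as high. Its log2 fold change was -0.76 (SE 0.38, 95% interval -1.64 to 0.12, adjusted p = 0.353). Blocking on the replicate number gave an adjusted p of 0.0115. Replicates 3 and 4 alone gave -0.48 with an adjusted p of 0.0379, a call that did not hold when any one of those 4 libraries was left out (adjusted p 0.0532 to 0.205). By FPKM rank among 47069 genes, Ctla4 stood at 22 to 77 in Ebi3-Treg and at 8 to 42 in Blimp1-Treg.

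Cd28 had 195, 260.1, 185 and 193 FPKM in Ebi3-Treg 1 to 4, against 256, 294, 183 and 194 FPKM in Blimp1-Treg 1 to 4. The populations overlapped, and within replicates 3 and 4 they lay almost on top of each other. The log2 fold change was -0.14 (SE 0.14, adjusted p = 0.729), and its 95% interval ran from -0.47 to 0.19.

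The other receptors were also set against Cd28 in the same library. The ratio of Icos to Cd28 in FPKM was 1.06, 1.38, 0.806 and 0.974 in Ebi3-Treg 1 to 4, against 3.01, 3.28, 2.59 and 2.38 in Blimp1-Treg 1 to 4. The Ebi3-Treg ratios were all below the Blimp1-Treg ratios. The ratio of Ctla4 to Cd28 was 3.68, 8.21, 4.004 and 4.39 in Ebi3-Treg, against 6.61, 13.0, 5.97 and 5.77 in Blimp1-Treg, with Ebi3-Treg 2 reaching into the Blimp1-Treg range. Of the summed FPKM of the 3 receptors, Icos made up 13.0% to 18.5% in Ebi3-Treg and 19.0% to 28.3% in Blimp1-Treg.

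**Figure D2:**
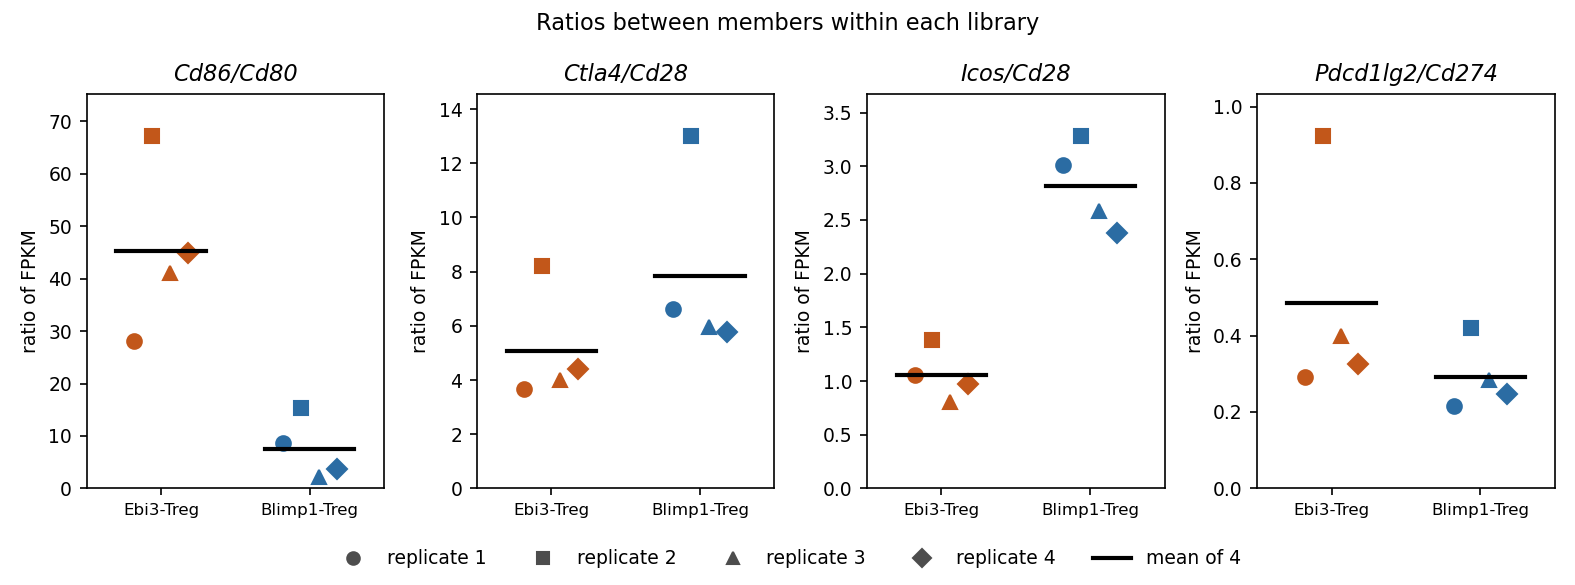
Ratio of FPKM between pairs of the 8 genes within each library (vertical axes, linear, from 0), for Ebi3-Treg (orange, left) and Blimp1-Treg (blue, right), with a line at the mean of 4. Cd86/Cd80 is at least 28.1 in Ebi3-Treg and at most 15.3 in Blimp1-Treg, and Icos/Cd28 is at most 1.38 in Ebi3-Treg and at least 2.38 in Blimp1-Treg.

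Cd86, a ligand of CD28 and CTLA-4, had the highest deposited FPKM of the 5 ligand genes in every Ebi3-Treg library. It was at 62.5, 118, 65.1 and 88.3 FPKM in Ebi3-Treg 1 to 4, against 24.5, 34.1, 13.9 and 16.0 FPKM in Blimp1-Treg 1 to 4. The lowest Ebi3-Treg library was above the highest Blimp1-Treg library. The log2 fold change was 1.90 (SE 0.26, 95% interval 1.30 to 2.51, adjusted p = 0.00594). Within tables it was 1.54 for replicates 1 and 2 and 2.27 for replicates 3 and 4, with adjusted p of 0.580 and 0.00575. Cd86 made up 49.4% to 70.1% of the summed ligand FPKM in Ebi3-Treg and 21.8% to 48.0% in Blimp1-Treg, where Cd274 was the larger share in 3 of 4 libraries. These shares rest on the authors' gene lengths. Rescaled from the fitted lengths to the reference exon lengths, Cd86 would be 20.1, 37.9, 21.0 and 28.4 FPKM in Ebi3-Treg 1 to 4, above Cd274 in 1 of 4, and its share would be 26.7% to 45.8% in Ebi3-Treg and 9.41% to 24.5% in Blimp1-Treg.

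Cd80, the other ligand that CD28 and CTLA-4 share, ran the opposite way and was scarce. It had 2.23, 1.75, 1.59 and 1.97 FPKM in Ebi3-Treg 1 to 4, against 2.82, 2.23, 6.18 and 4.24 FPKM in Blimp1-Treg 1 to 4. The values did not overlap, but the highest Ebi3-Treg and the lowest Blimp1-Treg value round to the same 2.23 FPKM, and most of the gap lay in replicates 3 and 4. For Cd80 the log2 fold change was -0.69 (SE 0.24, 95% interval -1.25 to -0.13, adjusted p = 0.165). The first table gave -0.24 and the second -1.15, and the test of that difference gave an unadjusted p of 0.0557, which did not pass after adjustment.

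The ratio of Cd86 to Cd80 was 28.1, 67.3, 41.0 and 44.8 in Ebi3-Treg 1 to 4, against 8.69, 15.3, 2.25 and 3.77 in Blimp1-Treg 1 to 4. The lowest Ebi3-Treg ratio was above the highest Blimp1-Treg ratio. The ratio of Ctla4 to Cd86, a receptor against its ligand in the same library, was 9.61 to 18.2 in Ebi3-Treg and 69.1 to 112 in Blimp1-Treg. Ratios between genes carry the gene lengths that the authors divided by, which fitted the reference exon length for Cd274 alone. For Cd86, for example, the shortest length that fitted all libraries was 1179 bases, against 3661 in the reference, so the size of a ratio depends on the length used, while its comparison between populations does not. At the reference lengths Cd86 to Cd80 would be 19.7 to 47.2 in Ebi3-Treg and 1.58 to 10.7 in Blimp1-Treg. Icos to Cd28 would be 1.29 to 2.21 in Ebi3-Treg and 3.80 to 5.25 in Blimp1-Treg.

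Cd80 and Cd86 both lie on chromosome 16 but are not neighbours. The promoter of Cd80 is shown because the gene ran opposite to Cd86, whose products bind the same receptors. It covers 250 bases before and 50 after the start in RefSeq (GRCm38.p6), chr16:38458683-38458982, plus strand. The 7 capitals mark a match to the AP-1 letters TGANTCA.

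Cd80: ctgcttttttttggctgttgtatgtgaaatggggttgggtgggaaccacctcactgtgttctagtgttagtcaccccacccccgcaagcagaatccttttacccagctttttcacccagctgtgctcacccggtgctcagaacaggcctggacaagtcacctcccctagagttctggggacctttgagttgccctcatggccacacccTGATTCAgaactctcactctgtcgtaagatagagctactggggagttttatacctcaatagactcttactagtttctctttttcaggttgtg

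Promoters of 5 of the 8 genes were searched on both strands for the letters AGNGAAAG of Blimp1, TGANTCA of AP-1, TTCNNNGAA of STAT factors and GGAAA of the NFAT core. Among 32851 mouse promoters of the same length, 8.63%, 7.81%, 8.30% and 61.3% held these letters, in that order. The AP-1 letters of Cd80 were the one match among the 3 less common motifs. Ctla4, Cd274 and Pdcd1lg2 held the common NFAT core, Icosl held none of the letters, and no match overlapped another. A match describes letters in the window and is not a bound site.

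Cd274 and Pdcd1lg2 are adjacent genes on chromosome 19 and encode both ligands of PD-1. Cd274 had 36.8, 24.1, 30.0 and 36.4 FPKM in Ebi3-Treg 1 to 4, against 27.6, 24.0, 30.0 and 29.6 FPKM in Blimp1-Treg 1 to 4. The populations overlapped, with nearly equal values in the libraries numbered 2 and 3. The log2 fold change was 0.17 (SE 0.17, adjusted p = 0.708), and its 95% interval ran from -0.21 to 0.56.

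Pdcd1lg2 had 10.7, 22.2, 11.9 and 11.9 FPKM in Ebi3-Treg 1 to 4, against 5.97, 10.1, 8.54 and 7.28 FPKM in Blimp1-Treg 1 to 4. Every Ebi3-Treg value was above every Blimp1-Treg value, by a small margin. Against the Blimp1-Treg library of the same number, Ebi3-Treg was 1.79, 2.21, 1.40 and 1.63 times as high. Pdcd1lg2 had a log2 fold change of 0.72 (SE 0.26, 95% interval 0.12 to 1.32, adjusted p = 0.173), and with the replicate block the adjusted p was 0.00924. The ratio of Pdcd1lg2 to Cd274 was 0.291 to 0.923 in Ebi3-Treg and 0.216 to 0.420 in Blimp1-Treg, so Cd274 had the higher FPKM of the pair in every library.

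The promoters of both genes are shown because these neighbours differed in how far the populations separated. They lie at chr19:29367188-29367487 for Cd274 and chr19:29410669-29410968 for Pdcd1lg2, both on the plus strand (GRCm38.p6). Capitals mark the NFAT core letters GGAAA.

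Cd274: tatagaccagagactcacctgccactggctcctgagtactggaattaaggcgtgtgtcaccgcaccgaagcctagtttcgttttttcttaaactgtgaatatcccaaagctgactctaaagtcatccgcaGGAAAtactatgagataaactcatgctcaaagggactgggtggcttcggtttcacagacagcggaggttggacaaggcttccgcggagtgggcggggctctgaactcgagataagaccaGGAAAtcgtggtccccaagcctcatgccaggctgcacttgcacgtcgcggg
Pdcd1lg2: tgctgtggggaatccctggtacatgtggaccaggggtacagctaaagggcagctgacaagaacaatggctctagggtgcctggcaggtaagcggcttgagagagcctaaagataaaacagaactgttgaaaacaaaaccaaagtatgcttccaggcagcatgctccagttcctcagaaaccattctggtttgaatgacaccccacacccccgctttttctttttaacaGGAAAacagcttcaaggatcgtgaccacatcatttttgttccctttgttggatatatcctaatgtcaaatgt

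Icosl, the ligand of ICOS, varied widely from library to library. It had 14.5, 2.09, 7.51 and 8.79 FPKM in Ebi3-Treg 1 to 4, against 5.10, 0.688, 5.12 and 1.53 FPKM in Blimp1-Treg 1 to 4. The populations overlapped over all libraries because Ebi3-Treg 2 was low, but each Ebi3-Treg library was above the Blimp1-Treg library of its number, by 2.83, 3.03, 1.47 and 5.74 times. Over all libraries the log2 fold change was 1.16 (SE 0.59, 95% interval -0.21 to 2.53, adjusted p = 0.368). With the replicate block the adjusted p was 0.0164. In both populations the library numbered 2 had the least Icosl and the most Cd28, Ctla4, Icos, Cd86 and Pdcd1lg2.

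**Figure D3:**
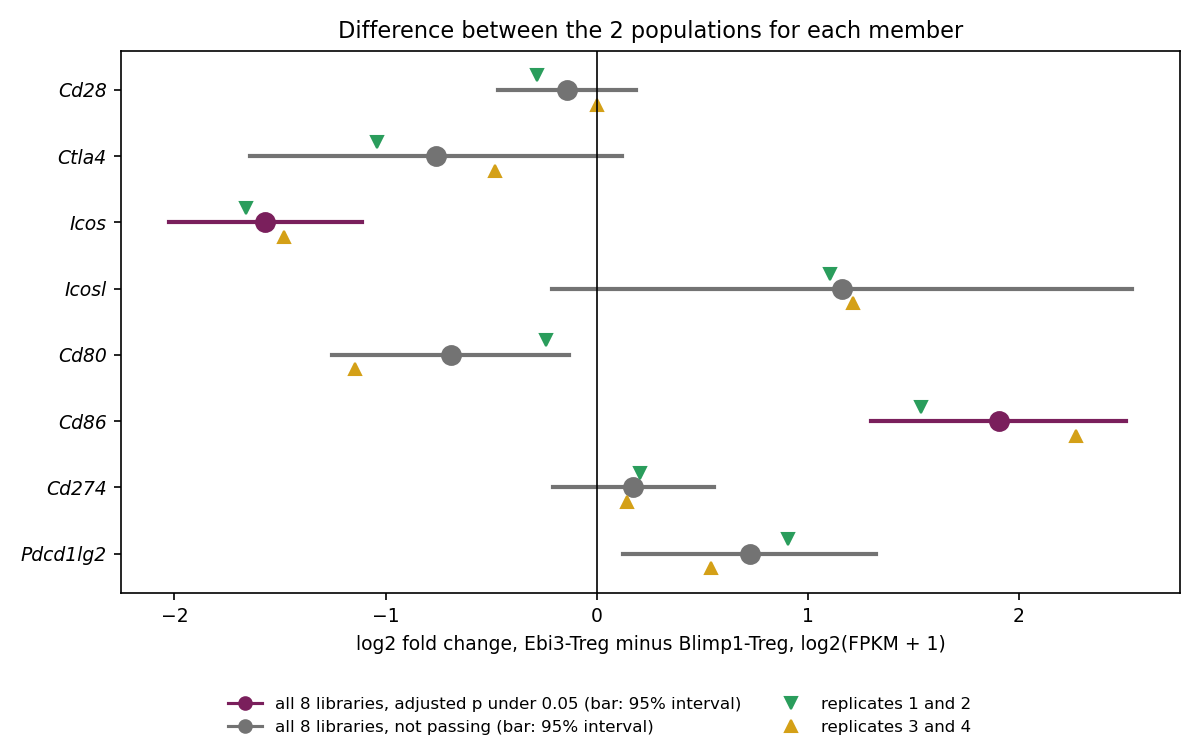
Log2 fold change on log2(FPKM + 1), Ebi3-Treg minus Blimp1-Treg (horizontal axis), of each gene over all 8 libraries (circles with 95% intervals, purple where the adjusted p is under 0.05) and within replicates 1 and 2 or 3 and 4 (triangles). Cd86 at 1.90 and Icos at -1.57 are the purple points, and the within-table values of Cd80, -0.24 and -1.15, lie farthest apart.

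Over the 8 genes, the test called 1 higher and 1 lower, against 6.29% of all genes. Values of the populations did not overlap for 4 of 8 genes (Cd86 and Pdcd1lg2 higher, Icos and Cd80 lower), against 11.1% of all genes. With the replicate block, 3 were called higher (Cd86, Pdcd1lg2, Icosl) and 2 lower (Icos, Ctla4), but the block also called 22.4% of all genes. Replicates 3 and 4 alone called 3 of 8, Icos and Ctla4 lower and Cd86 higher, against 11.0% of all genes. Fits that left out one of those 4 libraries called 1 or 2 of the 8 and 143 to 485 genes in all, against 1347, fewest without Blimp1-Treg 3. Replicates 1 and 2 alone called 0 of 8 and 0.0% of all genes by limma, with 707 genes at an unadjusted p under 0.05, while the block within them called 2855 genes and 5 of the 8. Without both libraries numbered 1, 4 of 8 were called against 16.1% of all genes, and without both numbered 2, 5 of 8 against 16.0%.

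In order of mean FPKM, Ebi3-Treg had Ctla4 (1110 ± 686), Icos (226 ± 92.2), Cd28 (208 ± 34.8), Cd86 (83.4 ± 25.6), Cd274 (31.8 ± 6.03), Pdcd1lg2 (14.2 ± 5.39), Icosl (8.21 ± 5.08) and Cd80 (1.88 ± 0.278; SD, n = 4 libraries). Icos and Cd28 overlapped in that order, as did Pdcd1lg2 and Icosl, and Icosl and Cd80. Blimp1-Treg had Ctla4 (1934 ± 1293), Icos (668 ± 244), Cd28 (232 ± 52.4), Cd274 (27.8 ± 2.76), Cd86 (22.1 ± 9.22), Pdcd1lg2 (7.96 ± 1.75), Cd80 (3.87 ± 1.76) and Icosl (3.11 ± 2.34; SD, n = 4 libraries). Cd274 and Cd86 overlapped there, as did Pdcd1lg2 and Cd80, and Cd80 and Icosl. At the reference lengths Icos would be above Cd28 in every library. Cd86 would then average 26.8 FPKM in Ebi3-Treg, below Cd274 at 31.8, and in Blimp1-Treg Icosl would average 1.86 FPKM, above Cd80 at 1.78. The summed ligand FPKM, as deposited, was 116 to 168 in Ebi3-Treg and 58.6 to 71.1 in Blimp1-Treg.

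Because the ligand genes are also transcribed by antigen-presenting cells, markers of those cells were read beside them. In bulk RNA, fewer cells of a type and less RNA per cell cannot be told apart. B cell markers (12 genes) summed to 305, 52.6, 78.9 and 68.8 FPKM in Ebi3-Treg 1 to 4, against 208, 34.0, 39.2 and 39.8 FPKM in Blimp1-Treg 1 to 4. Both libraries numbered 1 were far above the rest, and Cd79a, a chain of the B cell receptor complex, was at 65.1 FPKM in the Ebi3-Treg library and 52.0 FPKM in the Blimp1-Treg library of that number but at most 2.31 FPKM in the other 6. Macrophage and monocyte markers (12 genes) summed to 143, 108, 17.5 and 29.3 FPKM in Ebi3-Treg, against 57.5, 21.1, 11.1 and 21.4 FPKM in Blimp1-Treg. Of these sums, Lyz2 gave 99.1, 91.1, 8.00 and 20.4 FPKM in Ebi3-Treg, against 29.9, 7.90, 3.74 and 8.44 FPKM in Blimp1-Treg. Cd68 was at 2.61 to 5.51 FPKM in Ebi3-Treg, against 4.22 to 8.63 FPKM in Blimp1-Treg. MHC class II genes (8 genes) summed to 1344, 828, 241 and 225 FPKM in Ebi3-Treg, against 774, 324, 255 and 208 FPKM in Blimp1-Treg. In Ebi3-Treg 2, H2-Aa, H2-Ab1 and H2-Eb1 were at 115, 131 and 61.7 FPKM, against 6.09, 8.95 and 3.38 FPKM in Blimp1-Treg 2. H2-DMa was at 85.6 and 86.2 FPKM in those libraries.

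The 12 dendritic cell markers summed to 224 to 383 FPKM in Ebi3-Treg, against 163 to 246 FPKM in Blimp1-Treg. Most of this was Cd83, which activated T cells also express, at 209 to 369 FPKM in Ebi3-Treg, against 148 to 240.2 FPKM in Blimp1-Treg. The other 11 genes summed to 61.4, 14.0, 14.5 and 12.2 FPKM in Ebi3-Treg 1 to 4, against 15.1, 5.43, 14.8 and 12.4 FPKM in Blimp1-Treg 1 to 4, so Ebi3-Treg 1 was far above the rest. In that library Fscn1 was at 30.8 FPKM and Ccl22 at 7.83 FPKM, against at most 6.92 and 1.1202 FPKM in Blimp1-Treg. Batf3 had 6.13 and 5.23 FPKM in Ebi3-Treg 1 and 2 but at most 0.674 FPKM in the other 6 libraries. Zbtb46, one of the 3 dendritic cell genes tested, was highest in Blimp1-Treg 3. It had 7.55, 3.50, 4.57 and 3.62 FPKM in Ebi3-Treg 1 to 4, against 2.06, 2.87, 10.8 and 4.86 FPKM in Blimp1-Treg 1 to 4. Cd209a was highest in Blimp1-Treg 4, at 1.19 FPKM, against 1.05 FPKM in Ebi3-Treg 1. Flt3 was at most 0.883 FPKM and Clec9a at most 0.398 FPKM in any library. Of the 12 genes, 2 were listed at 0 in Ebi3-Treg 4, 1 in Blimp1-Treg 2 and 2 in Blimp1-Treg 3.

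None of the tested genes of the B cell, dendritic cell, macrophage and class II lists (7, 3, 3 and 7 genes) passed the limma test. The replicate block called 22.4% of all genes. With it, 3 of 7 B cell, 2 of 3 dendritic cell and 2 of 3 macrophage genes were higher in Ebi3-Treg. Of the 7 class II genes, 0 were called with the block. The B cell genes called were Cd22, Cd79b and Bank1, while Cd79a, Ms4a1, Blk and Cr2 did not pass (adjusted p 0.207 to 0.932 with the block). The dendritic cell genes called were Fscn1 and Cd83. By limma without the block, the macrophage genes Lyz2, C1qc and Cd68 were at 1.79, 1.13 and -0.48 (adjusted p = 0.0920, 0.0505 and 0.378). Of the 3 plasma cell genes tested, 1 was higher in Ebi3-Treg by limma and 2 did not pass. The gene called was Derl3, which acts in the removal of misfolded proteins from the endoplasmic reticulum. It had 7.90 to 10.0 FPKM in Ebi3-Treg and 1.61 to 2.85 FPKM in Blimp1-Treg (log2 fold change 1.72, adjusted p = 0.00207). Sdc1 was at 0.05 and Jchain at -1.12 (adjusted p = 0.980 and 0.681). Jchain had 14.5, 0.292, 0.844 and 0.824 FPKM in Ebi3-Treg 1 to 4, against 12.5, 0.247, 6.02 and 11.8 FPKM in Blimp1-Treg 1 to 4. Within replicates 3 and 4, limma gave Jchain -2.37 (adjusted p = 0.0192).

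Ebi3-Treg 1 had the highest B cell, class II and macrophage sums and the lowest Cd86 of its population. Ebi3-Treg 2, with the highest Cd86, had the next highest class II and macrophage sums, 828 and 108 FPKM. Its B cell sum, 52.6 FPKM, was the lowest of its population. Cd22 was at 10.9 FPKM there, against 44.5 and 28.8 FPKM in Ebi3-Treg 3 and 4. Bank1 was also lower, at 2.37 FPKM against 4.03 and 5.02 FPKM. Cd79a was higher, at 2.31 FPKM against 2.11 and 1.49 FPKM, as was Ms4a1, at 1.55 FPKM against 0.936 and 0.722 FPKM. The dendritic cell sum with Cd83 was highest in Ebi3-Treg 2 and Blimp1-Treg 2, the libraries where Cd86 was highest in each population. Without both libraries numbered 1, the Cd86 log2 fold change was 2.10 (adjusted p = 0.00114) and that of Icos was -1.46 (adjusted p = 0.000920). In that fit Icosl was at 1.099 (adjusted p = 0.0744). Without both libraries numbered 2, the Cd86 fold change was 1.95 (adjusted p = 0.00310). Icosl was highest in Ebi3-Treg 1, the library with the highest B cell sum. In Blimp1-Treg 1, with a B cell sum of 208 FPKM, Icosl was at 5.10 FPKM. It was at 5.12 FPKM in Blimp1-Treg 3, where that sum was 39.2 FPKM. Cd86 in Blimp1-Treg 1 was at 24.5 FPKM, above the 13.9 and 16.0 FPKM of Blimp1-Treg 3 and 4. Without both libraries numbered 2, the Icosl fold change was 1.26 (adjusted p = 0.0442). The part of antigen-presenting cell RNA in the Cd86, Icosl, Pdcd1lg2 and Cd80 values was not tested.

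**Figure D4:**
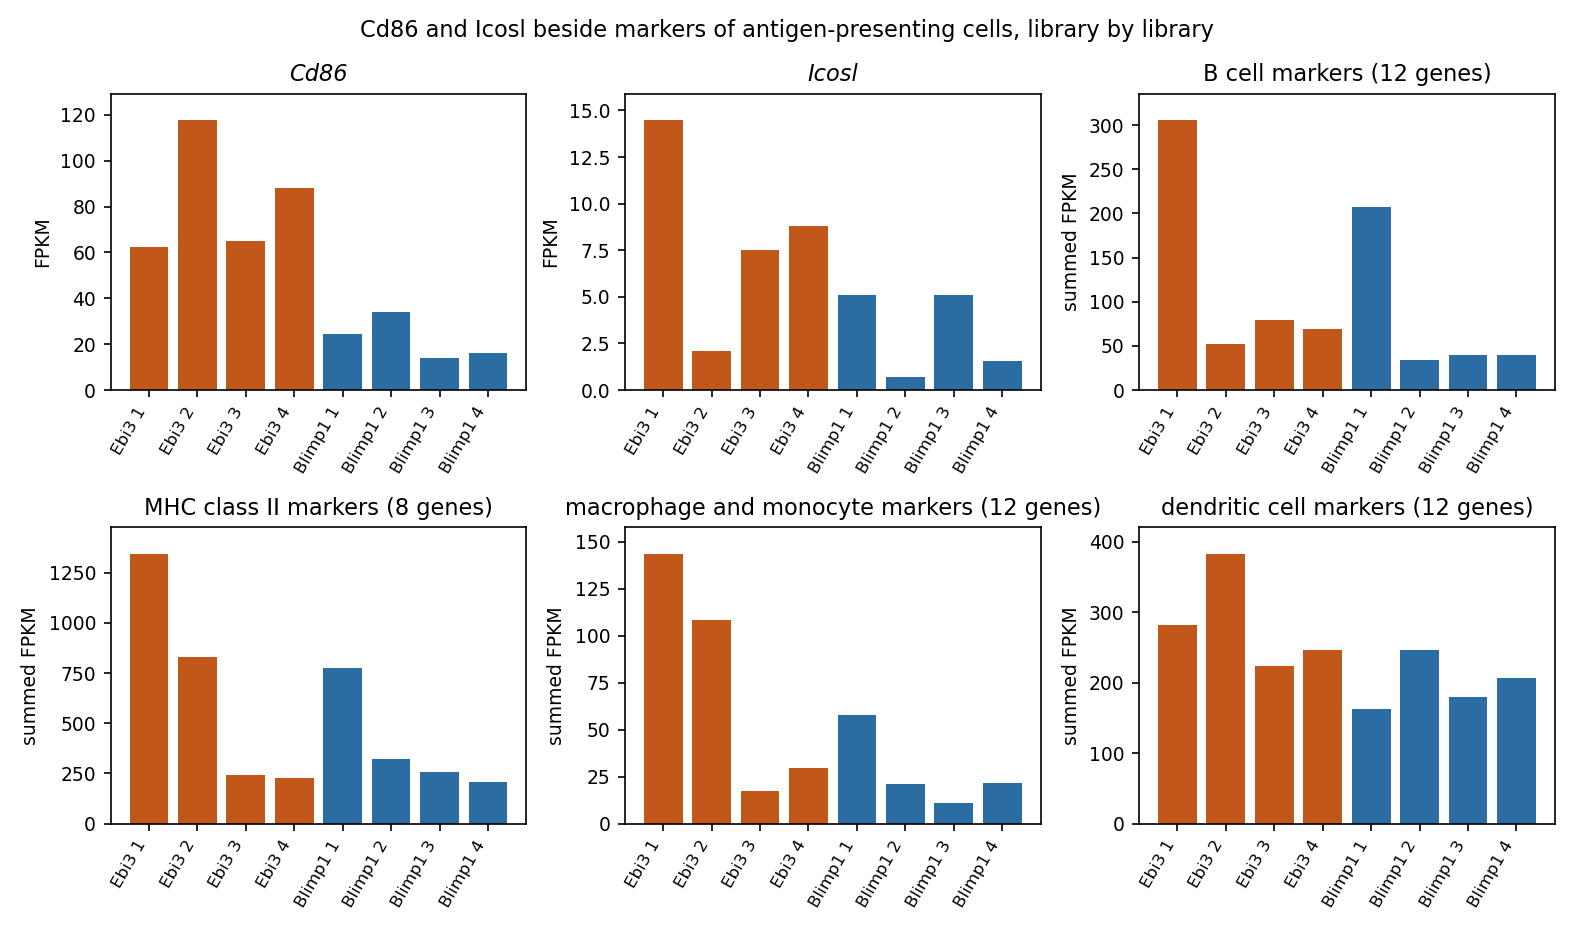
FPKM of Cd86 and Icosl, and summed FPKM of 4 marker lists (vertical axes, linear, from 0), in each Ebi3-Treg (orange) and Blimp1-Treg (blue) library. The B cell sum peaks at 305 in Ebi3-Treg 1, where Icosl is at its highest, 14.5, and Cd86 at the lowest of its population, 62.5. In Blimp1-Treg 1 the B cell sum is 208, Icosl is 5.10 and Cd86 is 24.5. In Blimp1-Treg 3 they are 39.2, 5.12 and 13.9.

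Genes around the receptors were read from 6 lists set by role. The relay of CD28 and ICOS signals to PI3 kinase and NF-kB had 23 of 24 genes tested, with 0 called higher, 2 called lower and 21 not called, and a median log2 fold change of 0.10 beside 0.07 for all genes. The limma test called 2 of 23 here, against 6.29% of all genes. Malt1, which encodes a protease of the NF-kB pathway, had 27.1, 17.1, 29.6 and 25.6 FPKM in Ebi3-Treg 1 to 4, against 89.5, 54.1, 109.8 and 103 FPKM in Blimp1-Treg 1 to 4. Its fold change was -1.78 (SE 0.21, adjusted p = 0.00332). Tec, a tyrosine kinase, had 4.38 to 10.4 FPKM in Ebi3-Treg, against 15.1 to 27.6 FPKM in Blimp1-Treg, a fold change of -1.62 (SE 0.24, adjusted p = 0.00782). Both genes were lower in Ebi3-Treg with no overlap, as Icos was. With the replicate block, 8 relay genes were higher and 3 lower, 11 of 23, against 22.4% of all genes.

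CTLA-4 cycles between the cell surface and internal vesicles, and 13 genes of its trafficking were tested, with 1 higher, 1 lower and 11 not passing (median -0.12), against 6.29% called over all genes. Trat1, which encodes the adaptor TRIM that carries CTLA-4 to the surface, had 105, 161, 126 and 119 FPKM in Ebi3-Treg 1 to 4, against 38.6, 50.4, 46.6 and 28.7 FPKM in Blimp1-Treg 1 to 4. Its fold change was 1.63 (SE 0.21, adjusted p = 0.00442). Lrba, which protects CTLA-4 from lysosomal breakdown, had 7.72, 3.23, 6.44 and 6.403 FPKM in Ebi3-Treg 1 to 4, against 15.2, 11.4, 16.8 and 18.5 FPKM in Blimp1-Treg 1 to 4. Its fold change was -1.28 (SE 0.24, adjusted p = 0.0196), so 2 genes of this list that act on CTLA-4 differed in opposite directions. For Lrba, leaving out Ebi3-Treg 3, Ebi3-Treg 4 or any Blimp1-Treg library other than 2 gave adjusted p of 0.0588 to 0.0851.

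Among 7 genes for partners of the CTLA-4 tail, 1 was higher and 6 did not pass (median 0.01), against the same 6.29%. Ptpn6, which encodes the phosphatase SHP-1, had 305 to 385 FPKM in Ebi3-Treg, against 151 to 258 FPKM in Blimp1-Treg, a fold change of 0.79 (SE 0.16, adjusted p = 0.0249). Leaving out any one library other than Ebi3-Treg 1 or Blimp1-Treg 2 ended that call, with adjusted p of 0.0539 to 0.0973, as did dropping the filter (0.0733) or the table term (0.0706). The list of other B7 and CD28 superfamily genes also held Tnfrsf14, a gene of the TNF receptor superfamily. Of its 8 genes found, 3 were tested, namely Vsir, Btla and Tnfrsf14. Of these, 0 were higher, 1 was lower and 2 did not pass, beside 6.29% called of all genes. Vsir, which encodes the inhibitory molecule VISTA, had 146, 128, 179 and 182 FPKM in Ebi3-Treg 1 to 4, against 302, 189.6, 309.9 and 339.7 FPKM in Blimp1-Treg 1 to 4. Its fold change was -0.82 (SE 0.16, adjusted p = 0.0241), a call that ended on leaving out any one of Ebi3-Treg 2 to 4 and Blimp1-Treg 3 and 4 (adjusted p 0.0666 to 0.103), or without the filter (0.0709) or without the table term (0.0956). Btla, an inhibitory receptor of the superfamily, was at 0.86 (adjusted p = 0.0919, and 0.00516 with the replicate block).

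None of 7 genes for regulators of Icos and Ctla4 mRNA passed the limma test (median 0.17), among them Rc3h1, the roquin gene that represses Icos mRNA, at -0.08 (adjusted p = 0.924). With the replicate block, 3 of the 7 were higher, against 22.4% of all genes. None of the 4 tested genes of B7 protein turnover passed (median 0.03). Cmtm6, which keeps PD-L1 at the surface, was at -0.46 (adjusted p = 0.378, and 0.00762 with the replicate block).

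**Figure D5:**
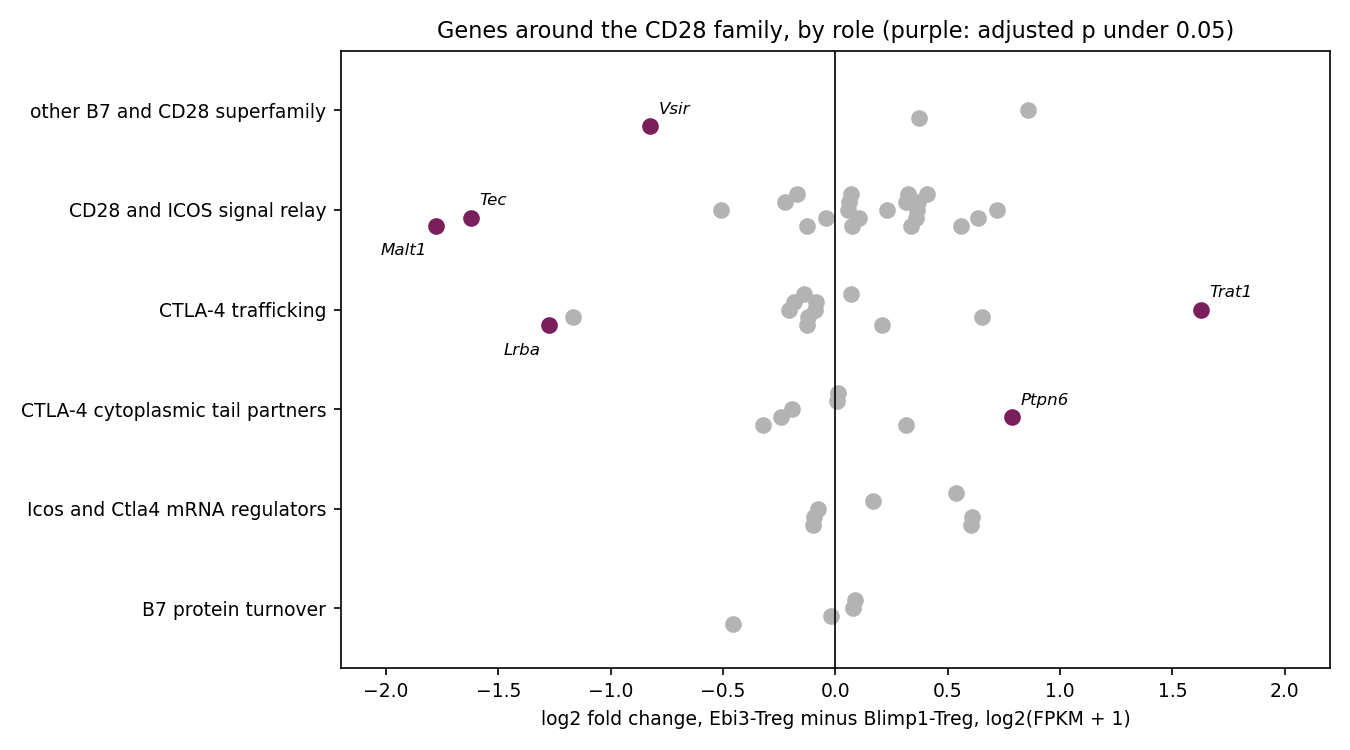
Log2 fold change on log2(FPKM + 1), Ebi3-Treg minus Blimp1-Treg (horizontal axis), of each tested gene in 6 lists around the CD28 family (vertical axis, 1 row a list, with points spread within a row for legibility). The 6 purple genes passed at an adjusted p under 0.05, with Malt1 at -1.78 and Trat1 at 1.63 at the ends.

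Likeness of pattern was measured by Pearson's r of log2(FPKM + 1) over the 8 libraries, after each table's mean was subtracted, and is given as a description. The libraries share a sort, a kit and, in pairs, a table and a number. The difference between the populations was not subtracted, so it enters every r. The 3 genes most like Icos were Ccrl2 (r = 0.993), Ripk3 (0.991) and Cdkn2c (0.988). Those most like Cd86 were Msrb2 (0.993), Angel2 (0.984) and Ccr7 (0.983), the last a chemokine receptor for lymph node homing. For Ctla4 they were Spcs2, Dhrs7 and Fkbp1a (0.992 to 0.996), and for Cd28 they were H13, Samhd1 and Tsg101 (0.965 to 0.987). For Icosl they were Il9r, Ap3m2 and Zfp110 (0.991 to 0.993), and for Cd80 they were Cyb561, Spdl1 and Bspry (0.966 to 0.984). For Cd274 they were Lpin1, Zfp239 and Pogk (0.978 to 0.990), and for Pdcd1lg2 they were Siah2, Gsto1 and Acat1 (0.994 to 0.998). Between the 8 genes themselves, r above 0.8 in size was 0.94 for Cd28 with Ctla4, 0.86 for Cd274 with Icosl and 0.82 for Cd86 with Pdcd1lg2. On the negative side it was -0.91 for Ctla4 with Icosl, -0.88 for Cd86 with Cd80, -0.85 for Ctla4 with Cd274, -0.83 for Cd28 with Icosl, -0.82 for Cd86 with Icos and -0.81 for Cd28 with Cd274.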

How the data were processed

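RNA-seq libraries of 4 Ebi3-Treg and 4 Blimp1-Treg samples were analysed, grouped by the labels. The authors deposited FPKM values per Ensembl gene in 2 tables of 47709 and 47681 features. Bowtie2 2.2.3, TopHat2 2.0.12, HTSeq 0.6.1 and build mm9 are named per the submitters' processing notes. Their settings, the annotation and the handling of strand and shared reads were not given in the sources used here. FPKM values are not counts, so no count model was used, and the reads behind each value were recovered from the step of 1 read (within 0.01 of a whole number).

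The 47069 genes in both tables were taken as log2(FPKM + 1). Genes that reached 1 FPKM in 4 or more of the 8 libraries were tested with limma 3.58.1 in R 4.3.3 (variance trend, terms for population and table), two-sided, with Benjamini-Hochberg adjustment and a threshold of 0.05. A fold change on this scale understates that of low genes. The fit was tested on simulated data. Rows lacking an Ensembl identifier (640 and 612 in the tables) were not used.

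Same-numbered libraries deviated together: the correlation of their deviations from the population means was 0.62, 0.89, 0.53 and 0.54 for numbers 1 to 4. All exceed 0.1, so the number was also fitted as a block, although the labels do not say what it stands for. Those means span both tables, so differences between the tables enter these correlations. Within tables, deviations correlated at 0.85 for numbers 1 and 2 and at -0.08 for numbers 3 and 4. Same-numbered libraries 3 and 4 therefore did not deviate together within their table.

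The genes, the lists and the tests were chosen with earlier results of these data known. Named are all 8 genes, every list gene that passed and the 3 genes most like each member. Also named are list genes given for contrast or to describe a list after their values were seen (Rc3h1, Btla, Tnfrsf14, Cmtm6). Markers were chosen in the same way. Alternatives covered the pseudocount, filter, table term, block, scaling, variance trend and libraries left out. Rescaling to reference exon lengths was added after seeing the data. Promoter sequences come from RefSeq (GRCm38.p6), for 5 of the 8 genes. Some genes of the lists enter the counts and sums but are not reported here by name.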

Additional observations from a re-analysis of the deposited data

Results flagged for a closer look

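In Ebi3-Treg, replicate 2 lay far above the other 3 libraries for 3 of the 8 genes: Cd28 at 260.1 FPKM, Ctla4 at 2135 FPKM and Pdcd1lg2 at 22.23 FPKM. The gap to the nearest library was 0.860, 0.908 and 0.891 of the range of the 4 libraries, above Dixon's critical value of 0.829. That is 3 of the 16 groups of 4 examined, and chance alone flags about 1 in 20. All 3 values come from the same library, which also stood apart across genes.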

How the results depend on the processing

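Over all libraries, Icos and Cd86 kept their direction and their call in each of the 19 alternatives run, with adjusted p up to 0.0416 for Icos and 0.0303 for Cd86. Against 772 genes called, fits with no filter on low values called 420, those with no table term 441, and those without 1 library 341 to 771. The replicate block raised the count to 2752 genes and 5 of the 8 members, against 2 without it, and changed no other member's call. Leaving out both libraries numbered 1 gave 1970 genes and 4 members, and both numbered 2 gave 1962 genes and 5 members. Within replicates 1 and 2, limma called 0 genes and 0 members, with 707 genes at an unadjusted p under 0.05. The block there called 2855 genes and 5 members, and leaving out 1 library called 8 to 76 genes. Within replicates 3 and 4, 1347 genes and 3 members were called, against 0 and 0 with no filter, 764 genes with no variance trend, and 143 to 485 genes and 1 to 2 members when 1 library was left out. A lone library of an arm was then assumed to vary like the other arm. The difference between tables was called for 0 genes and 0 members by limma, with 203 genes at an unadjusted p under 0.05, and for 13 genes with the replicate block. Signs turned for members that were not called: within replicates 1 and 2, leaving out 1 library gave -0.057 to 2.27 for Icosl and -0.092 to 0.498 for Cd274, both lowest without Ebi3-Treg 1. Within replicates 3 and 4, Cd28 at 0.00 gave -0.022 with median ratio scaling, -0.0020 with quantile normalization and -0.042 to 0.044 when 1 library was left out. The cause was not tested. The 5 FPKM filter left Cd80 untested. Depth did not limit detection, since all 64 member values exceeded the floor of 3 reads. Reference exon lengths, chosen after seeing the data, moved the mean Cd86 share of ligand FPKM to 34.8% in Ebi3-Treg and 15.8% in Blimp1-Treg, against 58.9% and 33.5% as deposited.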
